A study of Mus musculus with 16 samples.

Results

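The data described here are the baseline transcriptome of RAW 264.7 cells that had been transfected with a control siRNA and received no agonist, in 4 of the 16 libraries of the study. The 4 libraries were chosen by their titles and labels alone (control siRNA, agent none), with no measured value used, and all genes in them were ranked by level. RAW 264.7 is a macrophage-like line grown from an ascites tumour that Abelson leukaemia virus had raised in a male mouse, so all 4 cultures are of 1 transformed line and not of primary macrophages. The cells were kept in high-glucose medium with serum, were transfected with 25 nM of a commercial non-targeting siRNA in a lipid reagent (Lipofectamine RNAiMAX) for 24 h, and were lysed for total RNA. All 4 cultures carried the siRNA and the lipid, and no untransfected culture is among them. The labels place 2 of the libraries in experiment 1 and 2 in experiment 2, with replicates numbered 1 and 2 in each, and the design text speaks of biological replicates. The wider study asks how C/EBPβ shapes alternative activation under β-adrenergic stimulation, and the libraries with Cebpb siRNA or isoproterenol were not compared here.

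Macrophages are phagocytes whose identity is set by the transcription factor PU.1 together with C/EBP and IRF family factors, and whose survival depends on the CSF1 receptor. They take up and digest material in lysosomes, sense microbes through Toll-like and cytosolic receptors, and release chemokines and cytokines. Interferon-γ with microbial products drives the classical (M1) programme, and IL-4 drives the alternative (M2) programme. In β-adrenergic signalling the receptor couples through a stimulatory G protein to adenylyl cyclase, and the cAMP formed activates protein kinase A and is broken down by phosphodiesterases.

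Libraries were made from the 3′ ends of polyadenylated transcripts, so that a transcript gives reads near 1 end whatever its length. Levels are reads per 1000000 of all reads in the library (RPM), are not divided by transcript length, and are compared between genes on that scale. The libraries held 19.1, 22.8, 20.2 and 22.4 M reads (M, 1000000 reads) in the order experiment 1 replicates 1 and 2, then experiment 2 replicates 1 and 2. Between 62.1% and 64.2% of the reads lay on genes, 21.7% to 22.3% mapped to several places and were assigned to no gene, and 7.68% to 9.39% lay outside annotated genes. A level of 1 RPM or less is listed as 0 in the deposited values and is called the floor here; the lowest listed values stand for 20 to 23 reads, and a gene at the floor is not shown to be silent. Errors are SDs over the 4 libraries, and no 2 libraries agreed within sampling noise.

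Of 52636 gene entries, 10221 (19.4%) were above the floor in all 4 libraries, 887 in 1 to 3 of them and 41528 in none. Among protein-coding genes 9610 of 21605 (44.5%) were above it in all 4, against 88 of 4337 long intergenic RNA genes (2.03%) and 121 of 7685 processed pseudogenes (1.57%). The detected genes had a median level of 19.0 RPM and 10% of them lay under 3.02 RPM and 10% over 113 RPM. Only 27 genes averaged at least 1000 RPM and 1197 at least 100 RPM. The distribution was steep at the top: the 100 highest genes took 31.5% of gene reads and the 1000 highest 62.7%, and 81 genes were among the top 100 in every library.

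**Figure D1:**
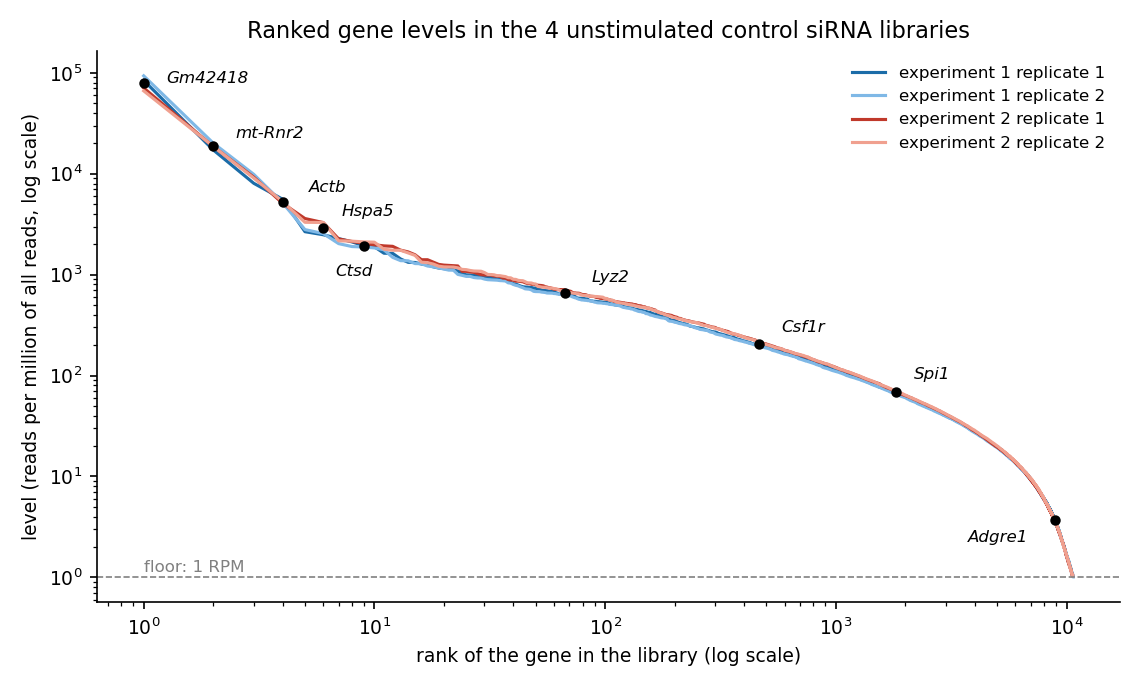
Gene levels against their rank in each of the 4 libraries, both axes logarithmic, with black points at the mean level and rank of 9 named genes. The 4 curves lie close together and meet the floor of 1 RPM after 10630 to 10699 genes.

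Gm42418 (ENSMUSG00000098178.1, chromosome 17 of GRCm38, from 39846958 to 39848788, plus strand) held the first rank in every library. It is annotated as a long intergenic RNA and its locus is known to overlap a ribosomal RNA repeat. Its levels were 84158 and 93423 RPM in experiment 1 and 70865 and 66282 RPM in experiment 2, and it alone took 12.5% of gene reads. The mitochondrial ribosomal RNAs mt-Rnr2 (18695 ± 1188 RPM) and mt-Rnr1 (9055 ± 758 RPM) followed in every library. All 37 mitochondrially encoded genes together made up 5.22% of gene reads, and only 0.819% came from mitochondrial mRNAs such as mt-Cytb (1429 ± 226 RPM), mt-Nd1 (1168 ± 57.6 RPM) and mt-Nd2 (1123 ± 89.4 RPM).

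The first protein-coding gene of the nucleus was Actb (β-actin, ENSMUSG00000029580.14, chromosome 5, 142903115 to 142906754 on the minus strand), with 5595, 5154, 5097 and 5306 RPM, rank 4 in each library. Serbp1, an mRNA-binding protein, stood at 3088 ± 434 RPM and Hspa5, the main chaperone of the endoplasmic reticulum, at 2906 ± 446 RPM. Fth1 (ferritin heavy chain) had 2109 ± 58.1 RPM, Hsp90ab1 (cytosolic chaperone) 2034 ± 201 RPM, Ctsd (cathepsin D) 1935 ± 142 RPM, Tmsb4x (actin-binding thymosin) 1923 ± 244 RPM and the nuclear RNA Malat1 1915 ± 211 RPM. These 5 levels lie close: Ctsd and Tmsb4x changed order between libraries, as did Serbp1 and Hspa5.

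Below them came Tuba1b (tubulin, 1632 ± 282 RPM), Ncl (nucleolin, 1575 ± 300 RPM), Atp5g3 (ATP synthase, 1456 ± 178 RPM), Rps14 (ribosomal protein, 1427 ± 164 RPM), St3gal5 (the synthase of ganglioside GM3, 1267 ± 121 RPM) and Psap (prosaposin, 1248 ± 136 RPM). The last of the top 25 were Ccnd1 (cyclin D1, 1116 ± 95.6 RPM), Hsp90b1 (endoplasmic reticulum chaperone, 1076 ± 160 RPM), Prdx1 (peroxiredoxin, 1074 ± 106 RPM) and Lpl (lipoprotein lipase, 1052 ± 194 RPM). Of the 24 pairs of neighbours in this order, 7 kept their order in all 4 libraries and 5 had ranges that did not touch, so most neighbouring ranks do not differ beyond the spread. Lpl and Ctsd are products that macrophages are known for, and most of the others are used by nearly all cells.

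The 83 detected of 92 cytosolic ribosomal protein genes summed to 26813 RPM, 4.25% of gene reads, with a median of 271 RPM. Histone cluster genes, whose main transcripts carry no poly(A) tail, were mostly at or near the floor: 44 of 69 were at it, and the highest, Hist1h1e, had 145 RPM. Proliferation genes were above the floor in 30 of 30 cases, against 44.5% of all protein-coding genes, with a median of 107 RPM. After Ccnd1 the highest were Tubb5 (953 RPM), Top2a (topoisomerase II, 808 ± 82.5 RPM), Mki67 (the Ki-67 antigen, 329 ± 23.4 RPM), Cdk6 (306 RPM) and Birc5 (281 RPM). The lowest were Stmn1 (14.7 RPM) and Aurkb (12.3 RPM).

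Among genes tied to transformation, Cdkn1a (the p21 inhibitor, 173 ± 11.5 RPM), Mcl1 (173 RPM), Bcl2l1 (117 RPM) and Mdm2 (109 RPM) led, and Trp53 stood at 65.7 ± 4.46 RPM. The Abelson kinase genes were at 18.1 ± 1.36 RPM for Abl1 and 101 ± 5.59 RPM for Abl2. Myc, Mycn, Cdkn2a, Cdkn2b and Bcl2a1d were at the floor in all 4 libraries. Cdkn2a and Cdkn2b encode inhibitors of the cyclin D kinases, and Myc is a growth-promoting factor. The 3′ ends of Myc, Mycn, Cdkn2a and Cdkn2b share no 50-base word with another annotated gene, while 94.8% of those words of Bcl2a1d are shared. Xist, the RNA of the inactive X chromosome, was at 424, 443, 355 and 354 RPM, rank 175. None of the 182 protein-coding genes of the Y chromosome was above the floor in all 4 libraries, among them Ddx3y, Kdm5d, Eif2s3y, Uty, Usp9y and Zfy1. The line is recorded as male, and these levels stand beside that record without a test.

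**Figure D2:**
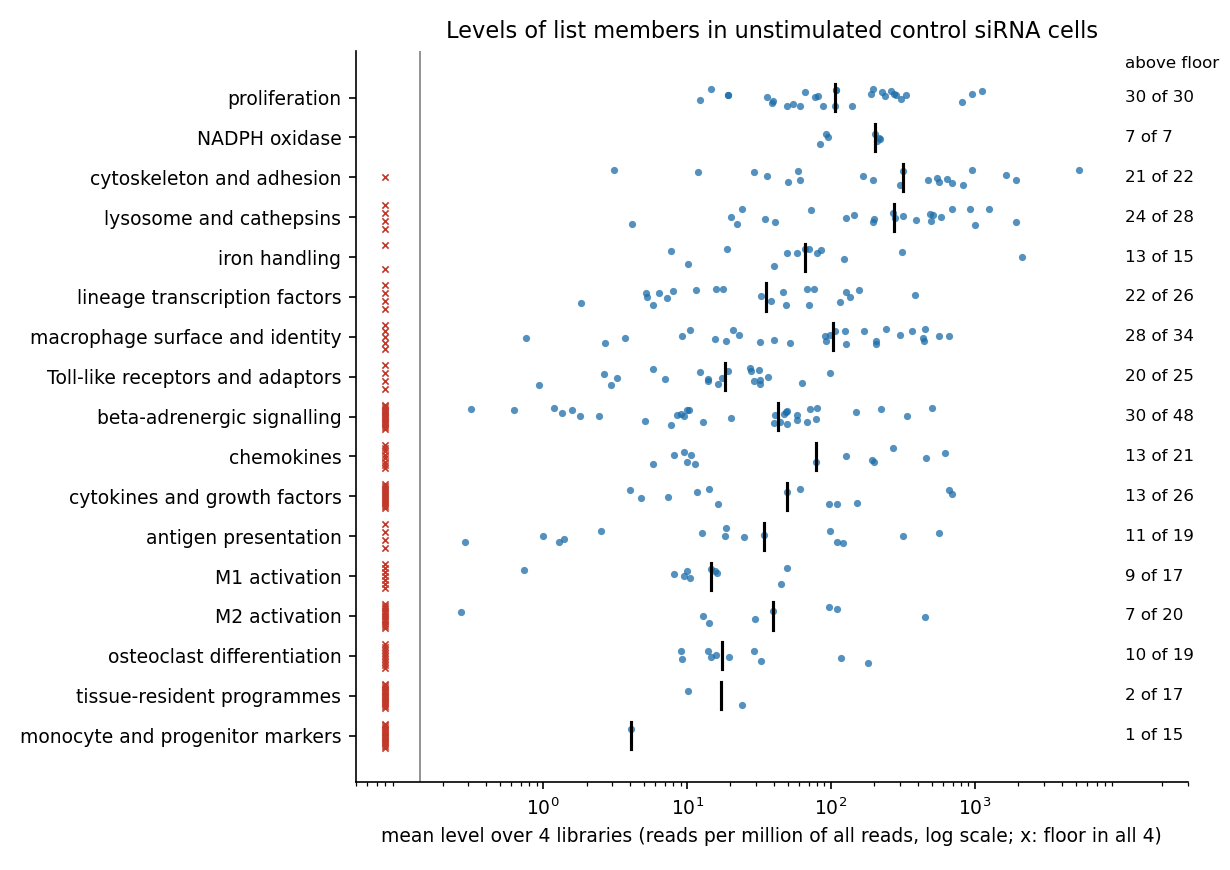
Mean level of each member of 17 gene lists over the 4 libraries on a logarithmic axis, with members at the floor in all 4 as red crosses left of the grey line and black bars at the median of the members above the floor in all 4. The numbers at the right give how many members were above the floor, from 30 of 30 for proliferation down to 1 of 15 for monocyte and progenitor markers.

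Factors that set the lineage were above the floor in 22 of 26 cases, 84.6% against 44.5% of protein-coding genes. Klf6, a zinc finger factor of activated macrophages, was highest with 328, 342, 438 and 422 RPM. Irf8 (135 ± 2.84 RPM), which is needed for the monocyte lineage, varied little, as did Spi1, the gene of PU.1, with 67.4, 69.8, 63.4 and 72.0 RPM. Ets2 (127 RPM) and Irf5 (115 RPM) were also above 100 RPM. Within the C/EBP family, Cebpb led with 74.5, 61.3, 81.4 and 87.3 RPM, ahead of Cebpd (11.5 ± 1.00 RPM), Cebpe and Cebpa (1.82 ± 0.686 RPM), and the ranges of Cebpb, Cebpd and Cebpa did not overlap. Irf4 and Egr2, both linked to alternative activation, Tfec and the immediate early gene Nr4a1 were at the floor.

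Macrophage surface and identity genes were above the floor in 28 of 34 cases (82.4%, against 44.5% of protein-coding genes). The median was 102 RPM among those 28. Lyz2, the macrophage lysozyme (ENSMUSG00000069516.8), was highest with 536, 515, 743 and 830 RPM, the experiment 2 libraries above both of experiment 1. Next were Laptm5 (a lysosomal protein of blood cells, 559 ± 44.7 RPM), Msr1 (scavenger receptor A, 446 ± 83.2 RPM), Fcer1g (the signalling chain of Fc receptors, 439 ± 20.2 RPM), Mpeg1 (perforin-2, 437 ± 56.8 RPM) and Ptprc (CD45, 367 ± 31.3 RPM). The defining markers Cd68 (242 ± 17.2 RPM), Csf1r (206 ± 17.3 RPM), Tyrobp (206 ± 24.8 RPM), Itgam (CD11b, 127 ± 6.64 RPM), Cd14 (97.8 ± 15.5 RPM) and Fcgr1 (20.8 ± 6.90 RPM) were all above the floor in every library.

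Adgre1, the gene of the F4/80 antigen by which mouse macrophages are often sorted, was low, with 3.31, 3.82, 3.47 and 4.20 RPM at rank 8887. Lyz1, Cd36 (a lipid scavenger receptor), Mrc1 (the mannose receptor), Cd163 (the haemoglobin scavenger receptor) and Itgax (CD11c) were at the floor, and Siglec1 was above it only in experiment 2. Markers of resident macrophages of named organs were largely at the floor as well, 15 of 17: Clec4f, Vsig4, Timd4 and Cd5l of Kupffer and related cells, P2ry12, Tmem119, Sall1 and Siglech of microglia, Siglecf and Car4 of alveolar macrophages, Gata6, Lyve1, Folr2, Spic and Vcam1. Icam2 (10.2 RPM) was among those above it.

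**Figure D3:**
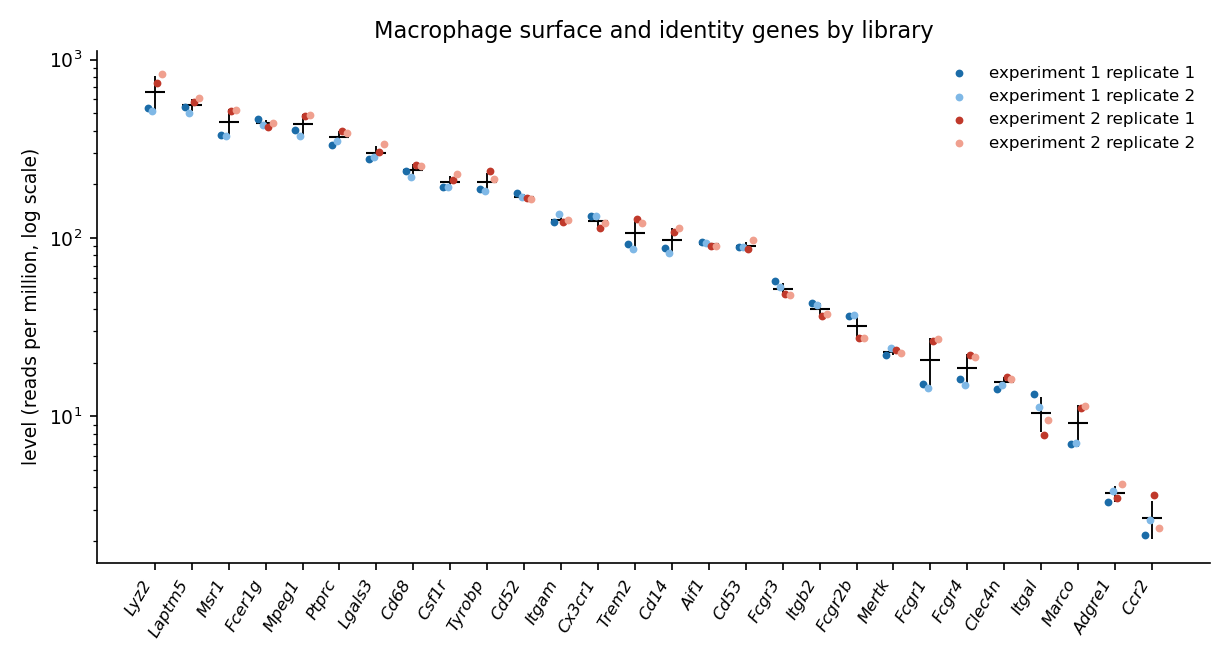
Level of the 28 detected macrophage surface and identity genes in each library, coloured points, with the mean and SD over the 4 libraries in black on a logarithmic axis. The genes run from Lyz2 at 656 RPM to Ccr2 at 2.69 RPM, and for Lyz2, Msr1, Mpeg1 and Fcgr1 both experiment 2 libraries lie above both of experiment 1.

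Markers of other cell types were largely at the floor, where 11485 of all 21605 protein-coding genes also lay. At it were 8 of 8 epithelial genes, 9 of 9 mast cell and basophil genes and 9 of 10 fibroblast genes. The same held for 11 of 12 T and NK cell genes, 9 of 10 B cell genes and 8 of 10 dendritic cell genes. Also at it were 7 of 10 neutrophil and 6 of 8 endothelial genes, with Kdr above it in 1 library and Vwf in 2. Those counts lie nearest the share over all protein-coding genes. Of 15 monocyte and progenitor genes 14 were at it, Ly6c2, Kit, Flt3, Cd34, Mpo and Elane among them. Summed over the list, the epithelial and mast cell markers were at 0 RPM in every library and the fibroblast markers at 0 to 1.16 RPM. The exceptions above the floor in all 4 libraries were few. Pf4, a platelet chemokine that macrophages can also make, had 456 ± 61.2 RPM while the other 11 erythroid and platelet genes were at the floor. Ighm (the IgM heavy chain) had 20.4 ± 2.70 RPM while Cd79a, Cd79b and Pax5 were at the floor. Meis1 (4.09 RPM), Lck (4.90 ± 0.790 RPM), S100a8 (2.85 ± 0.497 RPM), Batf3 (5.27 RPM) and Zbtb46 (4.91 RPM) were the rest.

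Promoter sequence was set beside these levels, because genes of broad use and genes of 1 lineage are known to differ in the CpG content of their promoters. RefSeq windows of 250 bases before to 50 after the start (GRCm38.p6) were matched to 13699 protein-coding genes with a single window. The ratio of observed to expected CpG had a median of 0.26 in genes at the floor, 0.76 in detected genes under 10 RPM, 0.82 from 10 to 100 RPM and 0.85 from 100 RPM, so that the step lay between undetected and detected genes. The macrophage surface and identity genes lay at the low end. Of the 17 with a single window that were above the floor, 0 had a ratio over 0.6, against 84.3% of the genes of at least 100 RPM and 48.9% of all 13699 genes, and their median was 0.23. Proliferation genes had a median of 0.88 (21 genes) and lysosomal genes 0.55 (16 genes).

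The 6 windows that follow show the contrast, each 5′ to 3′ in the direction of the gene, numbered from the RefSeq start (base −1 is the last before it), with CpG dinucleotides in capitals. Lyz2 and its neighbour Lyz1 are shown because 1 was at 656 RPM and the other at the floor, Mpeg1 and Cd68 as macrophage genes, and Ncl and Atp5g3 as broadly used genes of more than 1000 RPM.

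Lyz2, chr10:117282303-117282472, minus strand, bases −200 to −31: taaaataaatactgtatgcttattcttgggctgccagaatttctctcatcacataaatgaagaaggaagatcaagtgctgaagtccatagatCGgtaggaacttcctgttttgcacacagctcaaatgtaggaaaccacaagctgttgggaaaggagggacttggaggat
Lyz1, chr10:117292899-117293068, minus strand, bases −200 to −31: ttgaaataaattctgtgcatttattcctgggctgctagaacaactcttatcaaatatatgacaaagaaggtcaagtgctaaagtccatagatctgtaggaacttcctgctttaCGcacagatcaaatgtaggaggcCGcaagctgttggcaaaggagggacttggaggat
Mpeg1, chr19:12460520-12460769, plus strand, bases −250 to −1: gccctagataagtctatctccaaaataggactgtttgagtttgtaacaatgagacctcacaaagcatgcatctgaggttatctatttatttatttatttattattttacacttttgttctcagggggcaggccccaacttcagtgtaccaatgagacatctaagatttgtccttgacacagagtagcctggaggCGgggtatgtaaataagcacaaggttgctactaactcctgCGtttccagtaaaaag
Cd68, chr11:69666171-69666420, minus strand, bases −250 to −1: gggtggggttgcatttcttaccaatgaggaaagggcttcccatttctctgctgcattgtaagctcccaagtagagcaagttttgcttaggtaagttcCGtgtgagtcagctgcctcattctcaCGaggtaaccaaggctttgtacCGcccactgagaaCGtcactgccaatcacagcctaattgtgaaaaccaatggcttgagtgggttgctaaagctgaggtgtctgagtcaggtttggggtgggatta
Ncl, chr1:86359456-86359705, minus strand, bases −250 to −1: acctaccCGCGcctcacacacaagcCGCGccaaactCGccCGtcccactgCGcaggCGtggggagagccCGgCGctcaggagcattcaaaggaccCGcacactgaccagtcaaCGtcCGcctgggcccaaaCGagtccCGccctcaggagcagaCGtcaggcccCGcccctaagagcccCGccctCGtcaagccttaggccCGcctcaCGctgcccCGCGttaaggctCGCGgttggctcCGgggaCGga
Atp5g3, chr2:73911327-73911576, minus strand, bases −250 to −1: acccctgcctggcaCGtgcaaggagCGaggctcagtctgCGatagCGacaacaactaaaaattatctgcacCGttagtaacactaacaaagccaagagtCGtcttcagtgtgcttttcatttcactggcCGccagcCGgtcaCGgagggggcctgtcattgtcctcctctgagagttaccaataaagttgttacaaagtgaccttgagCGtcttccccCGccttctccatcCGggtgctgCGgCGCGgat

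The Lyz2 window of 170 bases holds 1 CpG and that of Lyz1 holds 2, against 27 in the 250 bases of Ncl. Mpeg1 and Cd68 hold 2 and 4, and Atp5g3 holds 15. The lysozyme genes lie next to each other on chromosome 10, and 92 of the 100 bases nearest the start are identical between them, as are 152 of the nearest 250 in an ungapped comparison. Of the 50-base words at their annotated 3′ ends, 21.9% are shared. The hexamer GAGGAA, the core that PU.1 is known to bind, occurred on either strand in 9 of the 17 macrophage windows (52.9%) and in 27.2% of all windows of 300 bases. Among detected members of other lists the share ran from 9.09% for interferon-stimulated genes (11 windows) to 43.8% for lysosomal genes (16 windows). These differences were not tested. The hexamer TATAAA at bases −40 to −16 occurred in 4.94% of windows of floor genes, 0.851% of those of 10 to 100 RPM and 1.80% of those of at least 100 RPM. A match describes letters only, and no binding was measured.

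**Figure D4:**
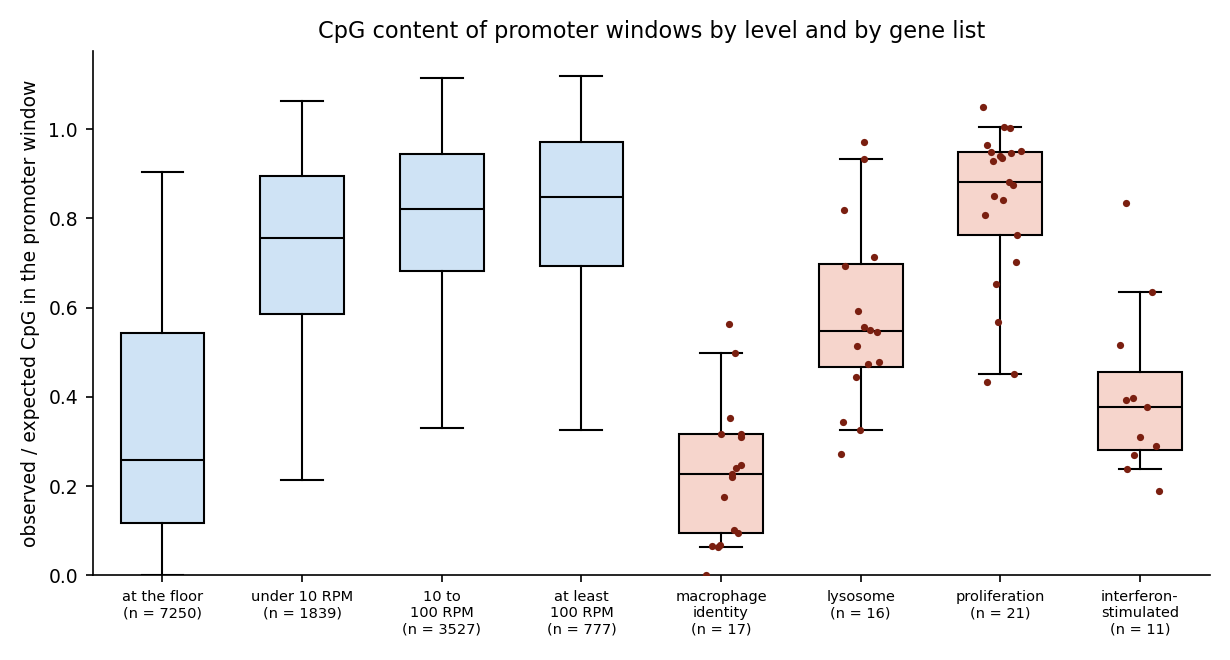
Ratio of observed to expected CpG in promoter windows of 300 bases, for protein-coding genes by level (blue) and for the detected members of 4 gene lists (red, points are genes). Boxes show the median and quartiles and whiskers the 5th and 95th percentiles. The macrophage identity genes have a median of 0.23 and the genes of at least 100 RPM one of 0.85.

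Lysosomal genes were abundant. Of 28 members 24 (85.7%) were above the floor, against 44.5% of protein-coding genes. Of those, 17 were at 100 RPM or more, and the list summed to 9204 to 10682 RPM. After Ctsd and Psap came Ctsb (cathepsin B, 997 ± 110 RPM), Lamp1 (a membrane glycoprotein, 917 ± 51.1 RPM), Grn (progranulin, 690 ± 39.9 RPM) and Gusb (β-glucuronidase, 583 RPM). Ctsk and Acp5, which osteoclasts make, Ctsf and Cd63 were at the floor. All 7 subunits of the NADPH oxidase were detected, from Cyba (219 ± 6.78 RPM) to Ncf1 (83.6 RPM), with the catalytic subunit Cybb at 176, 181, 227 and 229 RPM.

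Osteoclast genes, a fate that RAW 264.7 cells are known to take under RANKL, were detected in 10 of 19 cases (52.6%). That share is not far from the 44.5% of protein-coding genes. The receptor of RANKL, Tnfrsf11a, had 29.1 ± 1.71 RPM, the proton pump subunit Tcirg1 180 ± 34.3 RPM and the protease Mmp9 154, 138, 77.8 and 96.7 RPM. The ligand Tnfsf11 and the effectors Ctsk, Acp5, Calcr, Oscar, Ocstamp, Atp6v0d2, Itgb3 and Src were at the floor, and Nfatc1, the master factor of that fate, had 9.16 RPM.

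Lipid and iron genes were prominent. Behind Lpl stood Npc2 (514 RPM), Msr1, Nceh1 (cholesteryl ester hydrolysis, 316 RPM), Lipa (270 RPM), Soat1 (cholesterol esterification, 200 RPM) and Fabp5 (196 ± 45.9 RPM). Apoe, a secreted lipid carrier, exceeded the floor in 1 library, at 1.03 RPM, and Pparg, Nr1h3, Olr1 and Cd36 in none. Ferritin light chain Ftl1 (314 RPM), the transferrin receptor Tfrc (123 RPM), Blvra (85.7 RPM), Slc11a1 (79.8 RPM) and Blvrb (70.8 RPM) followed Fth1, while Hmox1, the inducible haem oxygenase, had 10.1 RPM.

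Secreted products were uneven. Of 21 chemokines 13 (61.9%) were detected, against 44.5% of protein-coding genes. They were led by Ccl4 (617 ± 64.3 RPM), Pf4, Ccl9 (271 ± 68.9 RPM), Ccl3 (200 RPM), Ccl2 (192 ± 52.0 RPM) and Cxcl2 (128 RPM). Ccl17, Ccl22, Ccl24, Cxcl1, Cxcl3, Cxcl9, Cxcl11 and Cx3cl1 were at the floor. Among cytokines and growth factors Grn, Spp1 (osteopontin, 655 ± 142 RPM), Igf1 (150 ± 10.3 RPM), Il1rn (the IL-1 receptor antagonist, 111 ± 37.0 RPM), Mif (96.9 RPM) and Pdgfb (60.7 RPM) led, and Tnf was at 47.1, 53.9, 46.6 and 49.7 RPM. Il1a, Il1b, Il6, Il10, Il12a, Il12b, Il23a, Il27, Ifnb1, Csf2, Csf3, Vegfa and Lif were at the floor, 13 of 26. The detected share of that list, 50%, is not far from the 44.5% of protein-coding genes.

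Of the M1 list 9 of 17 members and of the M2 list 7 of 20 were above the floor (52.9% and 35%), shares not far from the 44.5% of protein-coding genes. At the floor stood the hallmark M2 genes Arg1 (arginase), Chil3, Retnla, Mrc1, Il10, Ccl17, Ccl22, Ccl24, Pdcd1lg2, Tgm2, Pparg and Vegfa. Detected M2 members were Msr1, Il1rn, Clec10a (96.3 RPM), Mgl2 (39.4 RPM), Il4ra (29.5 RPM), Ppargc1b (14.1 RPM) and Clec7a (12.9 RPM). On the M1 side Nos2 (inducible nitric oxide synthase), Il1b, Il6, Il12b, Cxcl9, Cd80 and Socs3 were at the floor, and Tnf, Irf1 (45.1 ± 6.05 RPM), Cd86 (16.1 ± 2.70 RPM), Ptgs2 (15.7 ± 3.43 RPM), Acod1 (14.8 ± 7.61 RPM) and Slc7a2 (10.5 RPM) were highest.

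Receptors were widely detected, set against the 44.5% of protein-coding genes above the floor. Of 26 growth factor and cytokine receptor chains 23 were above the floor, with Csf1r, Tnfrsf1a (101 RPM), Csf2rb (69.3 RPM), Tgfbr2 (64.3 RPM), Ifnar2 (40.6 RPM) and Ifngr2 (38.3 RPM) highest and Il1r1 at the floor. Of 25 Toll-like receptors and partners 20 were, led by Cd14, Unc93b1 (which carries receptors to endosomes, 62.9 RPM), Irak1 (36.7 RPM), Irak4 (32.3 RPM), Tlr7 (32.2 ± 6.14 RPM) and Myd88 (31.8 RPM). Tlr4, the receptor of lipopolysaccharide, had 22.8, 22.7, 31.5 and 33.7 RPM, and Tlr9, Tlr11, Tlr12 and Lbp were at the floor. Chemokine and complement receptors were led by C3ar1 (367 ± 76.9 RPM), Cx3cr1 (125 RPM) and C5ar1 (122 RPM), with Ccr1, Ccr3, Ccr7, Cxcr2, Fpr1, Fpr2 and Cmklr1 at the floor.

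The inflammasome list was above the floor in 13 of 16 members (81.25%, against 44.5% of protein-coding genes). Highest were Aim2 (a DNA sensor, 99.7 RPM), Nek7 (62.1 RPM), Casp8 (50.2 RPM), Casp1 (45.7 RPM), Pycard (the adaptor ASC, 33.2 ± 1.10 RPM) and Nlrp3 (30.3 RPM). The inflammasome substrate Il1b was at the floor. Pycard lay between 31.7 and 34.2 RPM in every library. C-type lectins were led by Clec4e (248 ± 29.2 RPM) and Clec4d (183 RPM), and complement by C1qc (104 RPM), C1qb (95.7 RPM) and C1qa (72.9 RPM) after the receptors and Itgam, with C2, C4b, Cfb, Cfd, Cd55 and Cd59a at the floor.

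Class I antigen presentation genes were well above the floor and the class II chains were at or near it. H2-D1 had 563 ± 34.8 RPM, B2m 318 ± 52.2 RPM, Psmb8 122 RPM, H2-K1 111 RPM, Tapbp 98.1 RPM and Psmb9 34.4 RPM. H2-Aa, H2-Eb1, H2-DMb1 and the class II activator Ciita were at the floor, H2-Ab1 exceeded it in 1 library, at 1.14 RPM, and Cd74, the invariant chain, had 18.7 ± 1.80 RPM. For H2-D1 and H2-K1, which have near-identical relatives, the assignment of reads is uncertain.

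The chain from the β-adrenergic receptor onwards is the part of the machinery that the wider study stimulates. Of its 48 listed members 30 (62.5%) were above the floor, against 44.5% of protein-coding genes. Of the β receptor genes described here, Adrb1 was above the floor in the 2 libraries of experiment 1 only, at 1.10 and 1.40 RPM, and Adrb3 in none. The stimulatory G protein Gnas had 78.0 ± 3.30 RPM, below the inhibitory Gnai2 at 503 ± 32.2 RPM. Of 9 membrane cyclase genes Adcy7 (49.8, 46.1, 38.9 and 42.1 RPM) and Adcy9 (1.60 RPM) were detected, and Adcy1, Adcy2, Adcy3, Adcy4, Adcy5, Adcy6 and Adcy8 were at the floor. The regulatory subunits Prkar1a (223 RPM) and Prkar2a (148 RPM) of protein kinase A exceeded its catalytic subunits Prkaca (49.4 RPM) and Prkacb (47.3 RPM). Phosphodiesterases were led by Pde4a (40.2 ± 3.54 RPM), ahead of Pde8a (20.1 RPM), Pde7a (12.8 RPM) and Pde4b (9.01 ± 1.16 RPM), and arrestin Arrb2 (337 RPM) exceeded Arrb1 (67.9 RPM). Rapgef3 and Rapgef4, the cAMP-activated exchange factors, were at the floor.

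Some genes that nearly all cells use were low. Gapdh, a glycolytic enzyme often taken as a reference, had 72.2 ± 7.37 RPM and rank 1725, Eno1 (enolase) 20.1 ± 2.29 RPM, Actg1 (γ-actin) 3.09 ± 0.620 RPM and Pgam1 2.43 ± 0.657 RPM, while Pkm (712 RPM), Aldoa (513 RPM), Tpi1 (239 RPM) and Ldha (219 RPM) of the same pathway were high. Reads that map to several places were assigned to no gene. The last 300 bases of each protein-coding transcript were therefore searched for 50-base words that another annotated gene also holds. Position was not checked, so words of genes annotated over the same bases count as shared, although their reads may map to a single place. The share was 78.3% for Gapdh, 86.9% for Eno1, 44.5% for Actg1, 0% for Pgam1, 100% for Trex1 and 58.7% for Cd63, both at the floor, and 12.4% for Actb. Of 1601 genes with at least 50% shared words 172 (10.7%) were above the floor in all 4 libraries, against 8207 of 16876 (48.6%) with none. Of 42 ribosomal protein genes with a share of at least 50%, 41 were above the floor, and Rpl24, with 81.3%, was at it. Those 41 had a median of 166 RPM, against 322 RPM for ribosomal protein genes with a smaller share and 368 RPM for those with none. Among other listed genes at the floor, the share was 68.2% for Cfb and 53.0% for C4b, and 0% for Cfd, Cd55 and Cd59a. For the haemoglobin genes Hba-a1, Hba-a2 and Hbb-bs, also at the floor, it was 80.1%, 73.7% and 68.3%. The part of shared ends in these levels was not tested.

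Variation between the 4 libraries was small and exceeded counting noise. The median coefficient of variation was 15.4% for genes of 1 to 10 RPM, where counting alone gives 10.2%, and 8.90%, 7.61% and 10.9% from 10, 100 and 1000 RPM on, where counting gives 4.14%, 1.66% and 0.571%. The steadiest genes of at least 100 RPM were Ube2d3 (a ubiquitin-conjugating enzyme, 256, 255, 257 and 255 RPM), Pafah1b2, Atp5e, Csnk1a1 and Utp11. The most variable were Rsad2, Trim30a, Slfn2, Mndal, Plin2, Zfas1, Tor3a, Il1rn, Tsr1 and Mmp9, and in each of these 10 both libraries of 1 experiment lay above both of the other.

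Across genes, log2 levels of libraries of the same experiment correlated with r = 0.994 and those of different experiments with r = 0.984 to 0.986 (10221 genes, which are not independent replicates). Levels of the experiments were therefore compared with limma on scaled log2 values, 2 libraries against 2. Of 10710 genes tested, 1803 (16.8%) were called at an adjusted p under 0.05, 1017 (9.5%) higher and 786 (7.34%) lower in experiment 2, and 82 and 37 of them by at least 2-fold. On the values as deposited, without scaling, the split was 1358 higher and 621 lower. On the scaled values the median difference of all tested genes was 0.00 in log2, a value that the scaling itself largely fixes. Without replicate 1 of experiment 2 the counts were 568 higher and 479 lower, and without replicate 1 or 2 of experiment 1 the lower count was 481 or 485.

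Genes of the interferon response, the antiviral programme that type I interferon switches on, were higher in experiment 2. All 17 list members that were above the floor in all 4 libraries were called higher, against 9.5% of all tested genes. Rsad2 (viperin, ENSMUSG00000020641.16, chromosome 12, 26442746 to 26456452 on the minus strand) was at 26.2 and 25.9 RPM in experiment 1 and at 174 and 198 RPM in experiment 2, a log2 difference of 2.79 ± 0.08 (SE, limma adjusted p = 3.33e-15). Ifi44 was at 17.7 and 19.6 against 92.1 and 108 RPM, Irf7 at 5.62 and 5.75 against 28.9 and 30.1 RPM, and Ifitm3, the most abundant member, at 723 and 743 against 1063 and 1087 RPM. The ranges of the experiments were apart for each of these.

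Ifit1, Ifit3, Mx1 and Mx2 were at the floor in both libraries of experiment 1 and at 1.98 to 7.15 RPM in experiment 2. Their calls rest on passing the filter through experiment 2 and are not counted above. The largest differences among named genes of at least 10 RPM were those of Cmpk2 (2.86 ± 0.14), Rsad2, Usp18 (2.62 ± 0.14), Rtp4 (2.51 ± 0.13), Ifi44 (2.38 ± 0.10), Irf7 (2.33 ± 0.13), Isg15 (2.16 ± 0.14) and Ifi204 (2.00 ± 0.14), all in log2. Interferon-inducible chemokines, both under 10 RPM on average, were also higher, Cxcl10 by 2.25 ± 0.17 and Ccl5 by 1.51 ± 0.15. The gene of interferon-β, Ifnb1, was at the floor in all 4 libraries. The labels give both experiments the same siRNA dose and time, and whatever else differed between the experiments cannot be told apart here.

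**Figure D5:**
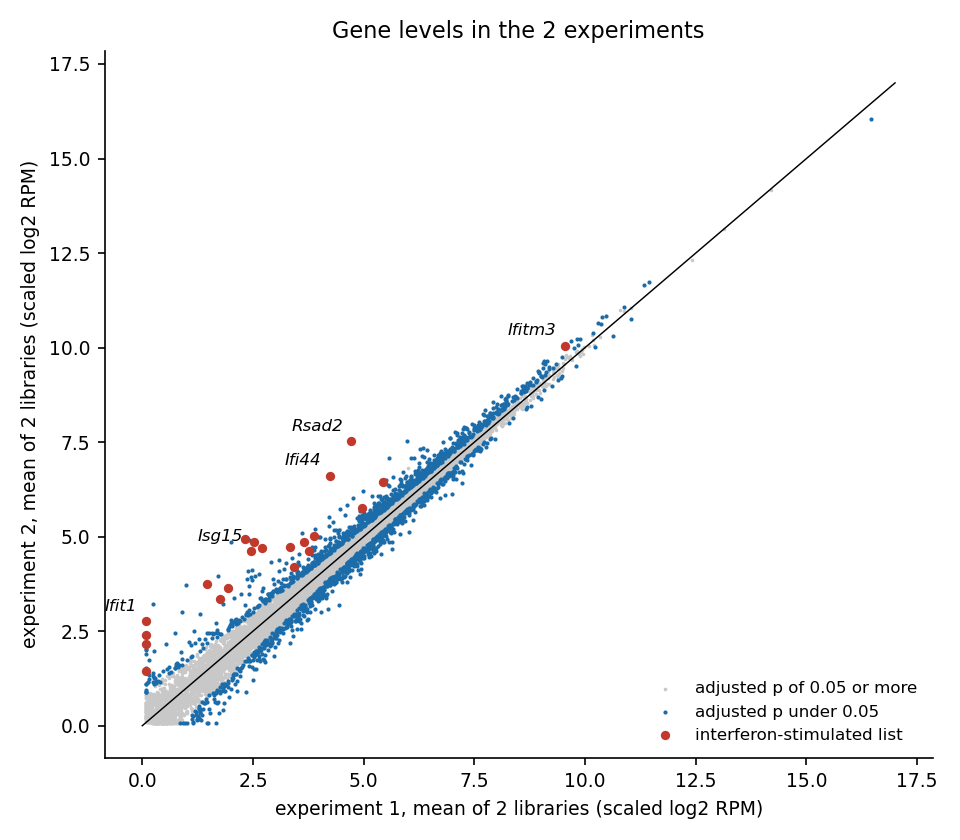
Scaled log2 level of each tested gene in experiment 2 against experiment 1, means of 2 libraries each, with called genes in blue and the 21 interferon-stimulated genes in red. All red points lie above the line of equal level, and the 4 at the left edge are at the common floor in experiment 1.

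The response element of interferon-stimulated genes repeats the letters GAAA, and GAAANNGAAA was searched on both strands. Among genes above the floor in all 4 libraries it occurred in 17 of the 38 single windows (44.7%) of those called higher by at least 2-fold, and in 3.26% of the windows of all those tested. With genes that were at the floor in a library added, it occurred in 22 of 45 (48.9%), against 3.34% of all tested and 3.58% of all windows. Windows of 3 members are shown from base −130 to −31, with the matches in capitals, as examples of windows that hold a match, chosen after the search.

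Isg15, chr4:156200849-156200948, minus strand, bases −130 to −31: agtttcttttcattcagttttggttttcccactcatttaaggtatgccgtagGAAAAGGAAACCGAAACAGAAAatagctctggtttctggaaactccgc
Ifit1, chr19:34640759-34640858, plus strand, bases −130 to −31: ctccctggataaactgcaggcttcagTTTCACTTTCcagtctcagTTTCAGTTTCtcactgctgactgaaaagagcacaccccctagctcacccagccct
Rsad2, chr12:26456483-26456582, minus strand, bases −130 to −31: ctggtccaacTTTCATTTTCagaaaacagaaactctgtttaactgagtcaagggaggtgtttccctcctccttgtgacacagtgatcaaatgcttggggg

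Isg15 holds 3 overlapping matches on the strand of the gene from base −78, Ifit1 2 matches on the other strand from −104 and −85, and Rsad2 1 match on the other strand from −120. Those letters are not in the windows of Irf7 and Ifi44. Of all genes called higher 52 of 628 windows (8.28%) held a match, and of those called lower 8 of 444 (1.80%). Both counts take in genes at the floor in some libraries, which could pass the filter only through the experiment where they are high.

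Counts for other lists stand beside the shares over all tested genes, 9.5% higher and 7.34% lower. Of 18 tested lipid genes 10 were called higher and 2 lower, with Plin2 (the lipid droplet coat) at 82.0 and 77.7 against 162 and 168 RPM, Abcg1 (cholesterol export) at 24.2 and 22.9 against 49.6 and 47.6 RPM, and Lpl by 0.42 ± 0.06 in log2. Of 13 tested chemokines 6 were called higher and 3 lower. Ccl9 (0.59 ± 0.07) and Ccl2 (0.61 ± 0.08) were the most abundant of the 6. Pf4 (−0.37 ± 0.07) and Cxcl2 (−0.49 ± 0.08) were among the 3 lower. Of 29 tested macrophage surface genes 9 were called higher, among them Lyz2 (0.54 ± 0.07) and Fcgr1 (0.81 ± 0.11), and 3 lower. The 29 take in Siglec1, which could pass the filter only through experiment 2, where it was above the floor. Of 30 proliferation genes 2 were higher and 6 lower, with Top2a (−0.29 ± 0.06) and Ccnd3 (cyclin D3, −0.41 ± 0.07) among the latter. Cebpb was higher by 0.28 ± 0.09 (limma adjusted p = 0.0302), a call lost without replicate 2 of experiment 1 (limma adjusted p = 0.299) or of experiment 2 (limma adjusted p = 0.113). Of the 32 tested β-adrenergic genes 2 were higher and 4 lower, near the shares over all tested genes. The 32 take in Adrb1, which passed the filter only through experiment 1 and was not called. The largest differences the other way were those of Snord13 (−1.25 ± 0.15), Gcnt1, Alox5 (5-lipoxygenase, 15.6 and 16.7 against 7.20 and 9.38 RPM), Neurl1b, Tmem154, Hist1h1c (63.5 and 64.0 against 32.9 and 37.7 RPM) and Lsr.

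A further sequence was found in the windows of some chaperones of the endoplasmic reticulum that are among the highest genes. Genes were picked by the match, and chaperones without it were not counted. The response element of that compartment's stress pathway reads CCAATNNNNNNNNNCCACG, and it occurred on either strand in 23 of all 13699 windows (0.168%). The 5 such genes of at least 100 RPM were Hspa5, Hsp90b1, Canx (calnexin, 794 ± 102 RPM), Calr (calreticulin, 681 ± 144 RPM) and Pdia6 (a disulphide isomerase, 514 ± 55.5 RPM), and 11 of the 23 genes were at the floor. The element is shown in capitals with the bases beside it, in the direction of each gene.

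Hspa5, chr2:34772020-34772049, plus strand, bases −70 to −41: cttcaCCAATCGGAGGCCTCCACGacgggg
Hsp90b1, chr10:86705632-86705661, minus strand, bases −217 to −188: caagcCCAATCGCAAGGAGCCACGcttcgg
Hsp90b1, chr10:86705527-86705556, minus strand, bases −112 to −83: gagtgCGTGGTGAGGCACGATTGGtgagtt
Canx, chr11:50325794-50325823, minus strand, bases −150 to −121: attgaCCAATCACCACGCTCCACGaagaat
Calr, chr8:84847069-84847098, minus strand, bases −167 to −138: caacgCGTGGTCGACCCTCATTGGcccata
Pdia6, chr12:17266486-17266515, plus strand, bases −103 to −74: agagaCCAATGAAAGGCGGCCACGgcgtgg

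In Calr and in the match of Hsp90b1 nearer the start the element runs on the other strand. Of the 11 genes with the element that were tested between the experiments, 7 were called higher in experiment 2, against 9.5% of all tested genes, and 0 lower. They were Hspa5 (2486 and 2555 against 3282 and 3301 RPM, log2 0.34 ± 0.06), Hsp90b1 (0.33 ± 0.06), Canx (0.28 ± 0.06), Calr (0.49 ± 0.06), Dnajc3 (0.60 ± 0.07), Creld2 (0.55 ± 0.09) and Syvn1 (0.44 ± 0.09). The call of Canx was lost without replicate 1 of experiment 1 (limma adjusted p = 0.0519). Pdia6 (0.19 ± 0.07, limma adjusted p = 0.0559), Hnrnpa3 (0.06 ± 0.08), Pan2 and Alg12 were not called.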

How the data were processed

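RNA of RAW 264.7 cells was read from the 3′ ends of transcripts (QuantSeq 3′ FWD, per the labels' protocols). Per the submitters' processing notes, STAR 2.5.3a and GRCm38 were used. The tool that counted reads, and any strand setting, were not given in the sources used here. Values deposited by the authors are log2 of reads per 1000000 of all reads (RPM) in a library, with 1 RPM or less listed as 0; 100% of the listed values stood for whole reads within 0.1 of a read. Levels here are the antilog. Gene positions and classes came from GENCODE vM21 by name (49596 of 52636 entries), and promoter windows from RefSeq (GRCm38.p6).

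The experiments were compared with limma 3.58.1 (R 4.3.3, trend and robust estimation) on the log2 values, with libraries put on one scale by a trimmed mean of log ratios, for genes above the floor in at least 2 libraries, with Benjamini-Hochberg adjustment and a threshold of 0.05. P-values measure the spread between 2 libraries per experiment. Genes named in the text are the 25 highest, the 6 highest, defining and floor members of each of 37 lists, the 8 largest differences each way among called genes of at least 10 RPM, and the 10 most and 5 least variable of at least 100 RPM; other genes, such as those chosen for a promoter motif, were named after their values were seen. The members and lists were chosen with earlier results of these data known. Results of some genes that the rule names are not reported here. The libraries with Cebpb siRNA or isoproterenol were left out.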

Additional observations from a re-analysis of the deposited data

Results flagged for a closer look

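Groups of 4 values, 1 per library, were checked for a library far from the others. The 244 groups were levels of single genes, summed levels of lists and measures of the libraries. In 4 of them, all single genes, the gap of 1 library to its nearest neighbour exceeded the 95% critical value of Dixon's test. Chance flags about 1 in 20 such groups. Abl1 was at 20.1 RPM in replicate 1 of experiment 1 and between 17.3 and 17.4 RPM in the other three libraries. Prkacb had 1 library at 50.9 RPM beside 45.6 to 46.4 RPM, Prkar2a 1 at 157 RPM beside 144 to 146 RPM, and Utp11 1 at 298 RPM beside 305 to 306 RPM.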

How the results depend on the processing

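The number of detected genes stayed within 1.5 times its value under each setting tried: 9414 at a floor of 2 RPM, 11108 when 1 library sufficed, and 10282 to 10304 when 1 library was left out. Genes of at least 100 RPM numbered 1175 to 1221, and the share of gene reads in the 100 highest was 30.8% to 32.0%, with 1 library left out. Per 1000000 gene reads, 1959 genes reached 100 RPM; without mitochondrial genes 2061 did and the share was 28.5%; without Gm42418 and mitochondrial rRNA, a choice made after seeing the data, 2364 did and the share was 17.9%. The counts rose with the smaller denominators, and the shares fell because genes among the highest were taken out. Between experiments, leaving out 1 library gave 1047 to 1516 called genes, 568 to 858 higher and 479 to 658 lower, and 17 to 21 interferon-stimulated members higher, a count that takes in the 4 members at the floor in experiment 1. Without replicate 1 of experiment 2 the count of called genes was 1047, with 568 higher and 479 lower, and without replicate 1 or 2 of experiment 1 the lower genes numbered 481 or 485; a smaller number of samples enters those fits. The difference of Alg12, which was not called, lay between −0.54 and 0.26 with 1 library left out and turned to 0.26 without replicate 2 of experiment 2; the cause was not tested. Cebpb lost its call when genes above the floor in 1 library were added (limma adjusted p = 0.0567). Pdia6 gained a call on the values as deposited (limma adjusted p = 0.0223). It also gained one with only genes above the floor in all 4 libraries (limma adjusted p = 0.0428). Without replicate 1 of experiment 2 the log2 difference of Pdia6 was 0.25. With the replicate number as a block, 1961 genes were called, 1089 higher and 872 lower, and no call of a named gene was lost; the numbers do not pair the samples, since replicate differences of the experiments correlated at −0.07 over 10221 genes. Count models (edgeR, DESeq2) were planned and not run, because the deposited unit is log2. Genes of under 10 RPM carry the most counting error, and none of these levels can separate silence from 1 RPM.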
